A study of Homo sapiens with 6 samples.

Results

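The 38 genes described here are C2H2 zinc finger genes of the clusters on the long arm of human chromosome 19, bands 19q13.41 to q13.42. They were chosen by name from a fixed list that runs from ZNF175 to ZNF331, and all 38 were found by Ensembl identifier among the 57820 human rows of the expression table. RNA-seq covered 6 samples from HCT116, a line derived from a colorectal carcinoma. The parental line (WT, 3 samples) has unchanged DNA methyltransferase genes, and DKO1 (3 samples) is a derivative that the labels describe as a knockout of DNMT1 and DNMT3B. The labels name no treatment. DKO1 is 1 derived line, so the targeting of the 2 genes and other differences between the lines cannot be told apart. Replicates carry the numbers 1 to 3 in both groups, and nothing in the labels ties them to separate cultures; p-values thus reflect the spread of these samples alone, and that spread may be technical.

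Most genes of these clusters encode KRAB zinc finger proteins. Tandem zinc fingers read a DNA sequence, often in a transposable element, and the KRAB domain recruits TRIM28. TRIM28 in turn brings the histone H3K9 methyltransferase SETDB1, HP1 proteins and, early in development, DNA methylation. The genes arose by tandem duplication, lie side by side and share sequence. In many tumours, promoters of chromosome 19 zinc finger genes are found methylated.

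Promoter windows of 6 members are shown as examples of the 2 kinds into which the members fell: ZNF528, ZNF808 and ZNF347 were at or near 0 in WT and expressed in DKO1, and ZNF616, ZNF766 and ZNF761 were expressed in both. Each window is 300 bases, from 250 before to 50 after the RefSeq start of the gene, on GRCh38.p14, written 5′ to 3′ on the strand of the gene. Capitals mark CpG sites, the dinucleotide that DNMT1 and DNMT3B methylate.
ZNF528, chr19:52397599-52397898, plus strand: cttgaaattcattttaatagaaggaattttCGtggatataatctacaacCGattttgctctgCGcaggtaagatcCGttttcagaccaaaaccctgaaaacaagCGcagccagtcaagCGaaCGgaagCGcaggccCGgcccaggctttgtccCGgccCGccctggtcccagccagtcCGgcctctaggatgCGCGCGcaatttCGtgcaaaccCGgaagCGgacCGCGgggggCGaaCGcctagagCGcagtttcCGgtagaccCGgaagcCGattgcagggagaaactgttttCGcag
ZNF808, chr19:52527418-52527717, plus strand: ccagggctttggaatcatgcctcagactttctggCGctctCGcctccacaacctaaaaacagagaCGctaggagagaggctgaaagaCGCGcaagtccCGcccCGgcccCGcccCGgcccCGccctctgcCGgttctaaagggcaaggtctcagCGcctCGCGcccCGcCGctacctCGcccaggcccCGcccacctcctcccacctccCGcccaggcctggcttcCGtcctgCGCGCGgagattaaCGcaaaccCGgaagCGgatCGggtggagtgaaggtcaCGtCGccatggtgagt
ZNF347, chr19:53159004-53159303, minus strand: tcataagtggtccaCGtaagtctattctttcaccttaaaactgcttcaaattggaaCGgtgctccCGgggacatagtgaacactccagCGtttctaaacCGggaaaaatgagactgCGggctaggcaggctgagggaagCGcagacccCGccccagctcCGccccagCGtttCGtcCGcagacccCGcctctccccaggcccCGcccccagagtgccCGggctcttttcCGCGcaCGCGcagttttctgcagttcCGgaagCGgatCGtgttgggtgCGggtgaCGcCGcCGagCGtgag
ZNF616, chr19:52139889-52140188, minus strand: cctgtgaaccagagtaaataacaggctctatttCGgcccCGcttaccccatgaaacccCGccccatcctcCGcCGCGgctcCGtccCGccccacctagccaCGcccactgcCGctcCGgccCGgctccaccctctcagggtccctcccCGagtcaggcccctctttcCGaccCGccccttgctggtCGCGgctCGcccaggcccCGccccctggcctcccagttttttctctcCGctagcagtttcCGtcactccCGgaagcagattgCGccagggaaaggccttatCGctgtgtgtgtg
ZNF766, chr19:52269337-52269636, plus strand: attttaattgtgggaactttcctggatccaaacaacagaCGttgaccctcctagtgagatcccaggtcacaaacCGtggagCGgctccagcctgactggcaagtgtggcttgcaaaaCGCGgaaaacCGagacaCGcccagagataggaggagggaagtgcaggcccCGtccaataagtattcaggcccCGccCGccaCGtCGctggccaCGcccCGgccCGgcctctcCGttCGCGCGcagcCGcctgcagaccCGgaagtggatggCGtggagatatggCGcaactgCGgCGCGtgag
ZNF761, chr19:53431734-53432033, plus strand: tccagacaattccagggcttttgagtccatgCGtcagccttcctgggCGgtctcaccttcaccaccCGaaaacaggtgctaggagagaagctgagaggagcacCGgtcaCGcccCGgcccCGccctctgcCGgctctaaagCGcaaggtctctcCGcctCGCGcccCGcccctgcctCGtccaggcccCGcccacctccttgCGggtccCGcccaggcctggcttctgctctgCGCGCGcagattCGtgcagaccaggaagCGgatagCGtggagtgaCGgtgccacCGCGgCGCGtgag

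These windows held 27, 29 and 27 CpG sites in ZNF528, ZNF808 and ZNF347, and 24, 26 and 28 in ZNF616, ZNF766 and ZNF761. A RefSeq window was found for 32 of the 38 members; ZNF649, ZNF480, ZNF610, ZNF600, ZNF28 and ZNF665 had no entry. Methylation itself was not measured in these files.

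The targeted genes and the cell identity were checked first. DNMT1 lay between 231 and 250 TPM in WT and between 30.8 and 46.8 TPM in DKO1, and DNMT3B between 6.77 and 8.22 against 3.56 and 4.86 TPM. Transcripts of both genes thus remained in DKO1, and RNA levels alone do not check the knockouts. TPM is a transcript abundance corrected for length and scaled to a fixed total, so levels of different genes can be compared but the depth of a sample is unknown. The 6 epithelial markers summed to 938 to 1174 TPM in WT and 696 to 926 TPM in DKO1, most of it EPCAM, KRT8 and KRT18. These 3 had lower means in DKO1 without passing. The means were 488 and 455.5 TPM for EPCAM (limma adjusted p = 0.624) and 143 and 87.8 TPM for KRT18 (0.255). For KRT8 they were 382 and 219 TPM (0.0543), with all DKO1 values below WT, as in 17.8% of tested genes. CDH1 was higher in DKO1, at 9.82 ± 0.277 against 2.97 ± 0.494 TPM (limma adjusted p = 0.000418), KRT19 had a higher mean without passing (adjusted p = 0.572), and CDH17 stayed below 1 TPM in all samples. The 5 blood cell markers summed to 0.21 to 0.32 TPM in WT and 3.11 to 3.6 TPM in DKO1, of which LYZ made up 2.23 to 2.46 TPM; HBB was at 0 throughout and PTPRC at 0 in WT and 0.43 to 0.61 TPM in DKO1. The 6 mesenchymal markers summed to 1.18 to 1.83 and 3.01 to 3.38 TPM; COL1A2 went from a mean of 0.017 to 1.25 TPM, while COL3A1 (0.297 and 0.12 TPM) and LUM (0.527 and 0.41 TPM) had lower means in DKO1. The 2 endothelial markers found stayed below 1 TPM. The part of these marker differences in the levels below was not tested. Mitochondrially encoded transcripts took 19.7% to 20.1% of the TPM in WT and 26.9%, 27.7% and 21.2% in DKO1 replicates 1, 2 and 3.

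Across the clusters, 27 of the 38 members were below 1 TPM in every WT sample and the other 11 were at 1 TPM or above in every WT sample. No member lay between: the highest value among the 27 was 0.68 TPM (ZNF350 in replicate 2) and the lowest among the 11 was 1.19 TPM (ZNF816 in replicate 1). Each WT sample alone gave the same 27 and 11 genes. In DKO1 each of the 27 was above 0 in all 3 samples, with a lowest value of 0.27 TPM, and for each the lowest DKO1 value lay above the highest WT value. Of the 57820 human rows 28333 were listed at 0 everywhere and 7667 showed such a gap upward. Of 19263 protein-coding genes 5387 showed it, and of all tested genes 27.5%. A tested gene below 1 TPM throughout WT must show it, since the filter described below requires 1 TPM in 3 samples. The share of tested genes is thus no scale for the 27. Of the 11 genes already expressed in WT, 2 rose and 9 did not pass the test.

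The test was limma on log2(TPM + 1), fitted to the 13604 genes that reached 1 TPM in 3 or more samples, with adjusted p below 0.05 as the threshold. Of the 38 members 35 were tested, 26 rose and 0 fell, beside 18.8% higher and 9.6% lower among all tested genes. By unadjusted limma p below 0.05, 0 members were lower, where only the 11 members expressed in WT could be. No share of all tested genes was counted at that threshold. The median log2 fold change of the tested members was 1.87, and that of all tested genes was 0.07. A gene near 0 in WT entered the test through its DKO1 values alone, so these counts could hardly contain an unchanged gene of that kind and carry no weight as a share. The median of the members is shaped by the same filter and carries no weight against 0.07. It was 2.28 in the 24 tested members low in WT and −0.12 in the 11 others. Below the filter, and untested, were ZNF836, ZNF415 and ZNF665. Where a gene was listed at 0 in WT, its log2 fold change depends on the added 1 and is no bound. Without a filter all 38 entered and 28 were higher, including all 27 genes that were low in WT, beside 14.9% higher among the 29487 genes of that fit. In bulk samples, more expressing cells and more RNA per cell cannot be told apart.

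**Figure D1:**
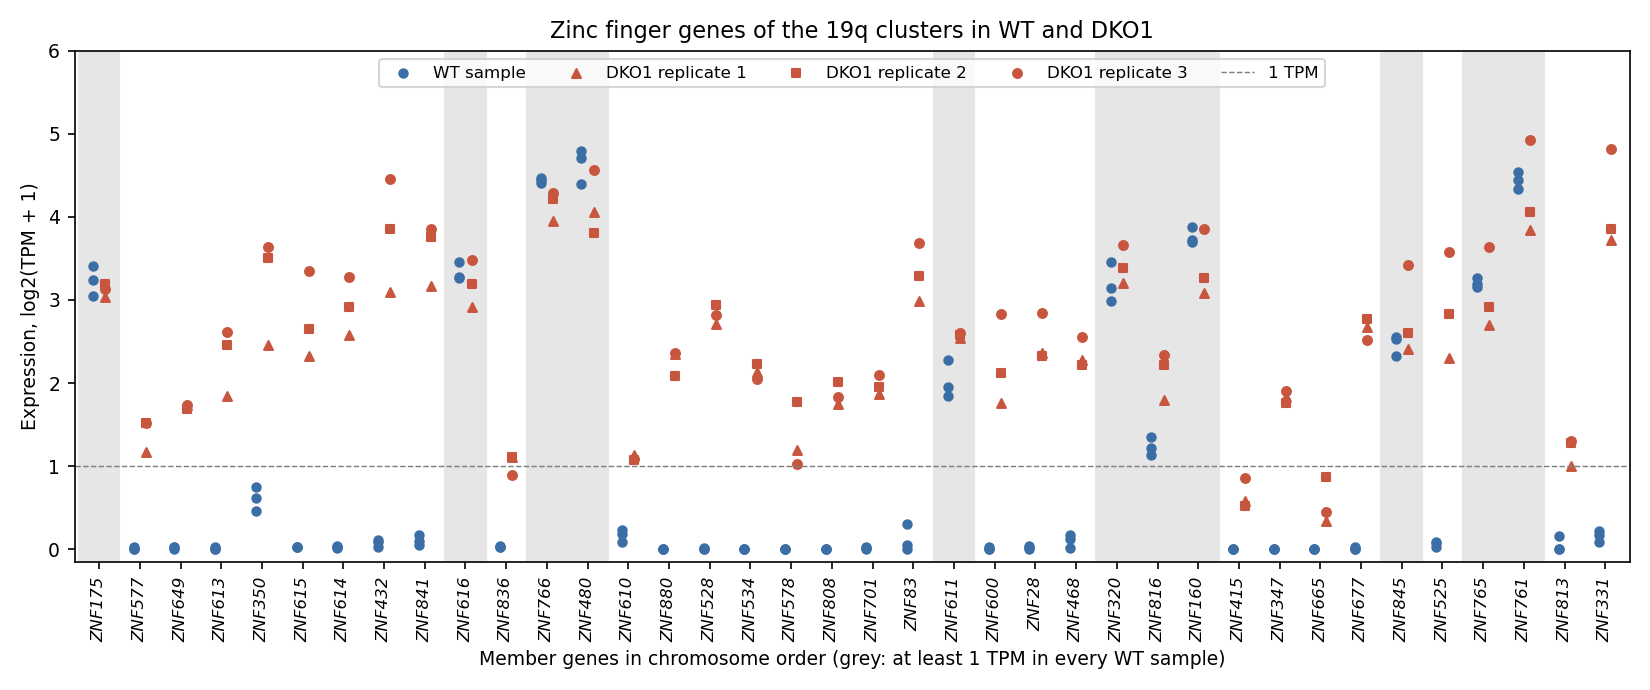
Expression of the 38 members in chromosome order, as log2(TPM + 1) for each of the 3 WT and 3 DKO1 samples, with the 11 genes at 1 TPM or above in every WT sample shaded. The WT points of the 27 unshaded genes lie at or near 0 and their DKO1 points lie above them, while at most shaded genes the 2 genotypes overlap.

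The 27 genes were not one block. In chromosome order the 38 members formed 14 alternating runs of low and expressed genes. The longest low runs held 8 genes each, from ZNF577 to ZNF841 and from ZNF610 to ZNF83. Runs of 1 to 3 genes expressed in WT separated them, and ZNF836 and ZNF525 were single low genes with an expressed gene on either side.

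The centromeric low run held ZNF577, ZNF649, ZNF613, ZNF350, ZNF615, ZNF614, ZNF432 and ZNF841. ZNF432 (ENSG00000256087.2) was at 0.02, 0.08 and 0.06 TPM in WT replicates 1, 2 and 3 and at 7.53, 13.5 and 20.9 TPM in DKO1 (log2 fold change 3.72, SE 0.32, limma adjusted p = 0.000147). ZNF841, its neighbour, was at 0.13, 0.07 and 0.04 TPM in WT and at 7.97, 12.6 and 13.5 TPM in DKO1 (log2 fold change 3.48, SE 0.21, limma adjusted p = 3.03e-05). For both genes each DKO1 value was far above each WT value, with replicate 1 the lowest. ZNF350, which encodes a KRAB repressor known as ZBRK1 that binds BRCA1, had the highest WT level of the 27, at 0.38, 0.68 and 0.53 TPM. In DKO1 it reached 4.5, 10.3 and 11.4 TPM, 16.5-fold higher on the group means (log2 fold change 2.59, SE 0.31, limma adjusted p = 0.000733). ZNF614 went from 0.02 ± 0.01 to 6.73 ± 1.85 TPM (SD, n = 3 here and below) and ZNF615 from 0.02 TPM in each WT sample to 6.18 ± 2.71 TPM. The 3 DKO1 values of ZNF615, 4.02, 5.3 and 9.22 TPM, were widely spread. ZNF649, reported as a repressor of serum response reporters, was even across DKO1 at 2.32, 2.22 and 2.32 TPM, and was listed at 0 to 0.02 TPM in WT. ZNF577 and ZNF613 reached 1.67 ± 0.35 and 4.06 ± 1.32 TPM.

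In the second long run, from ZNF610 to ZNF83, several genes were listed at 0 in all WT samples. ZNF880, ZNF534, ZNF578 and ZNF808 were among the 7 such members of the whole set; the others were ZNF415, ZNF347 and ZNF665. ZNF808, a KRAB zinc finger gene needed for human pancreas development, stood at 2.36, 3.04 and 2.57 TPM in DKO1 (log2 fold change 1.87, SE 0.13, limma adjusted p = 5.96e-05). ZNF880 stood at 3.82 ± 0.5, ZNF534 at 3.41 ± 0.28 and ZNF578 at 1.58 ± 0.74 TPM. ZNF528 (ENSG00000167555.9) had the smallest p of the set: it was at 0.01, 0 and 0 TPM in WT and at 5.57, 6.7 and 6.05 TPM in DKO1 (log2 fold change 2.82, SE 0.14, limma adjusted p = 1.35e-05). The highest level of this run belonged to ZNF83, with 0, 0.23 and 0.04 TPM in WT and 6.93, 8.75 and 11.8 TPM in DKO1 (log2 fold change 3.2, SE 0.21, limma adjusted p = 4.26e-05). The smallest change among the tested low members was that of ZNF610, from 0.12 ± 0.06 to 1.14 ± 0.05 TPM (log2 fold change 0.93, limma adjusted p = 0.00101). ZNF701 reached 2.94 ± 0.32 TPM. ZNF808 and ZNF701 overlap on the same strand and shared 13.2% and 8.63% of their transcript sequence with other genes, as counted below, so their split is uncertain.

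The remaining low genes were ZNF836, ZNF600, ZNF28, ZNF468, ZNF415, ZNF347, ZNF665, ZNF677, ZNF525, ZNF813 and ZNF331. ZNF331 (ENSG00000130844.12), the last gene of the set, is imprinted in some human tissues and encodes a KRAB zinc finger protein. On the log2(TPM + 1) scale it showed the largest change of all members, from 0.16, 0.06 and 0.13 TPM in WT to 12.2, 13.5 and 27.1 TPM in DKO1 (log2 fold change 3.97, SE 0.29, limma adjusted p = 6.64e-05). With a pseudocount of 0.1 ZNF432 came first, at 6.42 against 6.29 for ZNF331, since the order of genes near 0 in WT depends on the value added. The DKO1 replicate 3 of ZNF331 was about as far above the other 2 as those were above WT, and without that replicate the call remained. ZNF677, described as methylated in several carcinomas, was even in DKO1 at 5.4, 5.8 and 4.71 TPM, from 0.02, 0 and 0 TPM in WT (log2 fold change 2.64, SE 0.14, limma adjusted p = 1.72e-05). ZNF525 went from 0.04 ± 0.02 to 3.92, 6.13 and 11 TPM (log2 fold change 2.84, SE 0.3, limma adjusted p = 0.000412). ZNF28 reached 4.77 ± 1.2, ZNF600 3.95 ± 1.92 and ZNF347 2.56 ± 0.17 TPM, and ZNF813 1.3 ± 0.26 TPM. The weakest were ZNF665, with 0.27, 0.82 and 0.37 TPM in DKO1, and ZNF415, with 0.5, 0.43 and 0.81 TPM. ZNF836 missed the filter by its DKO1 replicate 3, at 0.86 TPM beside 1.15 TPM in each of the other 2. Without a filter these 3 had limma adjusted p-values of 0.0348 (ZNF665), 0.006 (ZNF415) and 0.00114 (ZNF836).

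**Figure D2:**
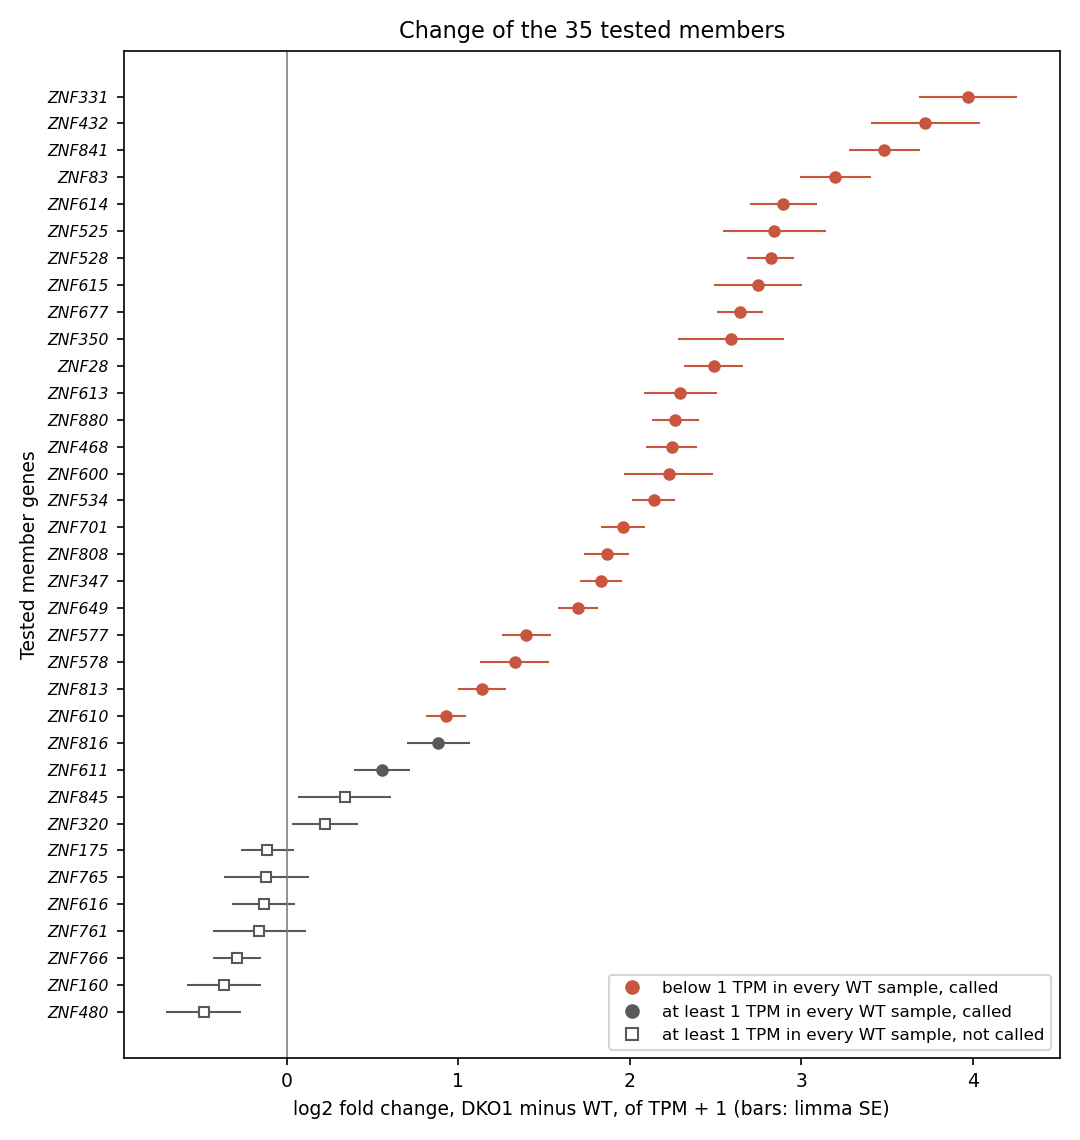
Log2 fold change on the log2(TPM + 1) scale, DKO1 minus WT, with the limma SE for the 35 tested members, sorted by size. The 24 called genes that were low in WT lie from 0.93 to 3.97, and the 11 genes expressed in WT lie from −0.49 to 0.88.

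The 24 tested low genes had log2 fold changes from 0.93 to 3.97, of which 16 were at least 2; that all of them passed was nearly fixed by the filter. Their level in DKO1 was moderate. Of the 27 low genes 10 had a DKO1 mean of at least 5 TPM, 15 lay from 1 to 5 TPM and 2 below 1 TPM. The median of the 27 was 3.39, 3.64 and 4.71 TPM in DKO1 replicates 1, 2 and 3, against 7.19, 8.15 and 11.4 TPM for the 11 other members and a median DKO1 mean of 12.2 TPM over all tested genes. Summed over the 27, expression went from 1.28 ± 0.162 to 135 ± 36.2 TPM. The 11 others summed to 121 ± 6.45 TPM in WT and 112 ± 28.4 TPM in DKO1. The sum over all 38 members was 115 to 129 TPM in WT and 190, 232 and 316 TPM in DKO1 replicates 1, 2 and 3.

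**Figure D3:**
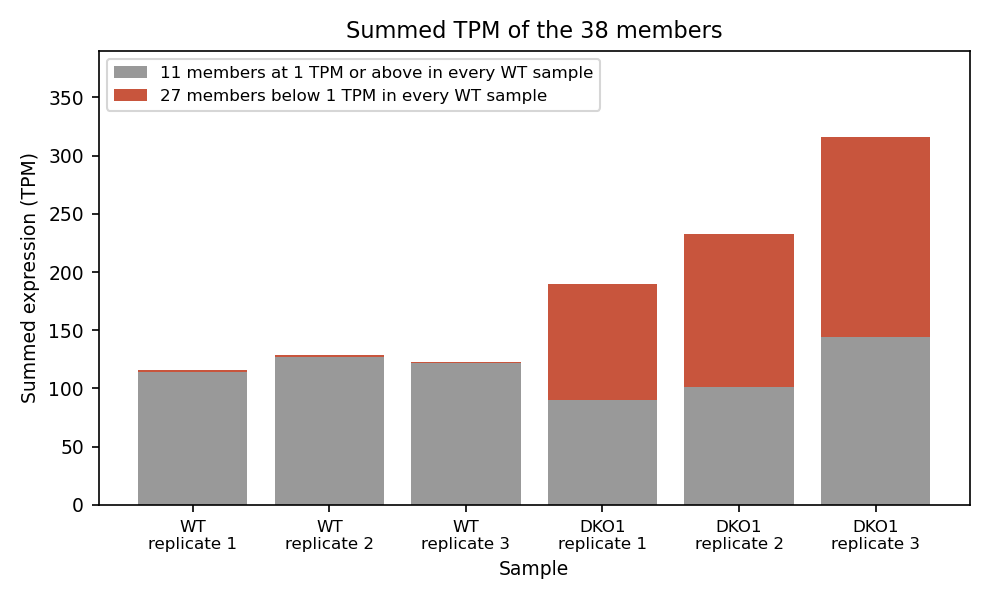
Summed TPM of the members in each of the 6 samples, split into the 11 genes expressed in WT (grey) and the 27 genes below 1 TPM in every WT sample (red). The red share is 1.11 to 1.43 TPM in WT and 100 to 172.3 TPM in DKO1, while the grey share overlaps between genotypes.

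Among the members expressed in WT, higher and lower values mixed: 7 log2 fold changes were negative and 4 positive, with a median of −0.12. ZNF480 and ZNF766, side by side, and ZNF761 were the most abundant. ZNF766 was at 20.2, 20.8 and 21.2 TPM in WT and at 14.4, 17.6 and 18.6 TPM in DKO1, and was the one member whose DKO1 values all lay below WT (17.8% of tested genes did so); it did not pass (log2 fold change −0.29, SE 0.14, limma adjusted p = 0.162). ZNF480 was at 20.1, 25.1 and 26.6 TPM in WT and at 15.7, 13 and 22.6 TPM in DKO1 (log2 fold change −0.49, SE 0.22, limma adjusted p = 0.138). ZNF761 overlapped fully, with 19.2, 22.2 and 20.7 TPM in WT and 13.4, 15.7 and 29.3 TPM in DKO1. ZNF160 (12.6 ± 0.91 and 9.85 ± 3.18 TPM), ZNF616 (9.1 ± 0.73 and 8.29 ± 1.82 TPM), ZNF175 (8.45 ± 1.19 and 7.69 ± 0.48 TPM), ZNF320 (8.24 ± 1.57 and 9.79 ± 1.77 TPM), ZNF765 (8.22 ± 0.36 and 7.81 ± 3.15 TPM) and ZNF845 (4.57 ± 0.48 and 6.36 ± 2.91 TPM) also did not pass. ZNF175, known as OTK18, is reported to repress the HIV-1 promoter in macrophages. Without DKO1 replicate 3, ZNF480, ZNF160 and ZNF761 were called lower (log2 fold changes −0.7, −0.59 and −0.48, limma adjusted p = 0.0234, 0.0251 and 0.0417), and ZNF480 was also called lower under median-ratio scaling (−0.63, limma adjusted p = 0.0374). Without that replicate 15.3% of all tested genes were lower, and under median-ratio scaling 15.5%.

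The 2 expressed members that rose were the 2 with the lowest levels in WT. ZNF816 went from 1.19, 1.33 and 1.55 to 2.46, 3.67 and 4.04 TPM, 2.5-fold higher (log2 fold change 0.88, SE 0.18, limma adjusted p = 0.011), and lost the call under quantile normalization (0.118). ZNF611, reported to bind SVA retrotransposons, went from 2.88, 3.83 and 2.58 to 4.83, 4.99 and 5.09 TPM, 1.6-fold higher (log2 fold change 0.55, SE 0.17, limma adjusted p = 0.0426). Its call was lost in 8 alternatives: without WT replicate 1 or 3 (limma adjusted p = 0.132 and 0.162), without DKO1 replicate 1, 2 or 3 (0.0916, 0.0652 and 0.0664), under quantile normalization (0.491), with no filter (0.065) and with median-ratio scaling (0.107). Among all tested genes at 1 TPM or above in every WT sample, 11.8% rose and 11.3% fell.

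DKO1 replicate 3 was often the highest and replicate 1 the lowest. Replicate 3 was the highest DKO1 sample for 27 of the 38 members and replicate 1 the lowest for 26, where all tested genes gave 51.3% and 40.1%. The median ratio of replicate 3 to replicate 1 was 1.46 for the 27 low genes and 1.02 for all tested genes below 1 TPM in every WT sample. For the 11 expressed members it was 1.55, beside 1.12 for all tested genes; replicate 3 was highest and replicate 1 lowest for 10 of these 11 members each. Replicate 1 lay below all WT samples for 7 of the 11, and replicate 3 above all WT samples for 7. Replicate 3 was also the DKO1 sample with the smallest mitochondrial share; the part of this share in the levels was not tested. Leaving out any 1 DKO1 sample left 25 members called higher. Among all tested genes 15.7%, 20.9% and 19.2% were higher without DKO1 replicates 1, 2 and 3.

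Other zinc finger genes give the scale. Here the genes below 1 TPM throughout WT are counted by whether all DKO1 samples reached 1 TPM, as a description with no test. Among the 27 low members 24 did so (88.9%). Of 107 low zinc finger genes on the rest of chromosome 19, 38 did so (35.5%), of 65 on other chromosomes 20 (30.8%), and of 8532 protein-coding genes 753 (8.83%). From below 0.1 TPM in every WT sample, 17 of 20 members reached 1 TPM throughout DKO1. So did 25 of 83 such zinc finger genes on the rest of chromosome 19, 15 of 41 on other chromosomes and 4.85% of such protein-coding genes. Over all 57820 human rows, 401 made this step (0.694%). The 17 members were ZNF577, ZNF649, ZNF613, ZNF615, ZNF614, ZNF432, ZNF880, ZNF528, ZNF534, ZNF578, ZNF808, ZNF701, ZNF600, ZNF28, ZNF347, ZNF677 and ZNF525. No member did the converse. Of 131 tested zinc finger genes on the rest of chromosome 19, 52 rose and 12 fell (median log2 fold change 0.29). Of 185 on other chromosomes 30 rose and 23 fell (median −0.02), beside 18.8% and 9.6% of all tested genes. The filter shapes these counts and medians, since genes near 0 in WT pass it through DKO1 alone. At 1 TPM or above in every WT sample, 15 of 90 rose and 12 fell on the rest of chromosome 19. On other chromosomes 9 of 159 rose and 23 fell, beside 11.8% and 11.3% of all such tested genes. The difference between these sets was not tested.

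Most genes of other families that lie among the members were at or near 0 TPM in both lines. Between ZNF175 and ZNF331 the RefSeq table lists 82 other genes, and 43 rows of the expression table matched. SIGLEC5, SIGLEC14, FPR1, FPR2, FPR3, HAS1, VN1R2, VN1R4, VN1R6P, ERVV-1 and ERVV-2, which encode lectins and formyl peptide receptors of white blood cells, a hyaluronan synthase, vomeronasal receptors and retroviral envelopes, never exceeded 0.06 TPM in any sample. The 33 neighbours without a zinc finger name include microRNAs and pseudogenes as well as protein-coding genes, and SIGLEC5 has more than 1 row. How well microRNAs and pseudogenes were measured is not given in the sources used here. Of the 33, 30 were below 1 TPM throughout WT. Of these 0 reached 1 TPM throughout DKO1, beside 2.37% of all human rows below 1 TPM throughout WT. In all, 18 of the 33 were listed at 0 everywhere. Of the 3 tested the one called was TPM3P9, a pseudogene overlapping ZNF761, from 4.52 ± 0.2 to 8.96 ± 3.53 TPM (limma adjusted p = 0.0496). That call was lost in 7 alternatives, among them without WT replicate 1, 2 or 3 (0.129, 0.132 and 0.122) and without DKO1 replicate 2 (0.0599). PPP2R1A, a phosphatase subunit, varied widely with 8.23 to 15.2 TPM in WT and 5.85 to 23 TPM in DKO1 (limma adjusted p = 0.746).

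Of the 10 neighbours with a zinc finger name 6 were tested and 3 rose, each a pseudogene, beside 18.8% of all tested genes. These 3 were at or near 0 in WT and entered the test through DKO1 alone, so the filter nearly fixed their calls. ZNF702P went from 0, 0.03 and 0.01 to 3.85, 4.01 and 5.29 TPM (log2 fold change 2.4, SE 0.15, limma adjusted p = 3.56e-05). ZNF137P and ZNF818P were listed at 0 in WT and reached 1.73 ± 0.8 and 1.27 ± 0.19 TPM. All 3 thus went from below 0.1 TPM throughout WT to above 1 TPM throughout DKO1, like the 17 members above. ZNF137P overlaps ZNF83 on the opposite strand, and whether counting used the strand is not given in the sources used here. ZNF528-AS1, named as antisense to ZNF528, went from 0 in WT to 0.97, 0.94 and 0.65 TPM, while ZNF350-AS1 and ZNF649-AS1 stayed at or below 0.26 TPM. ZNF888 had values from 0.09 to 12.7 TPM within WT and from 0.59 to 17.8 TPM within DKO1 and did not pass.

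**Figure D4:**
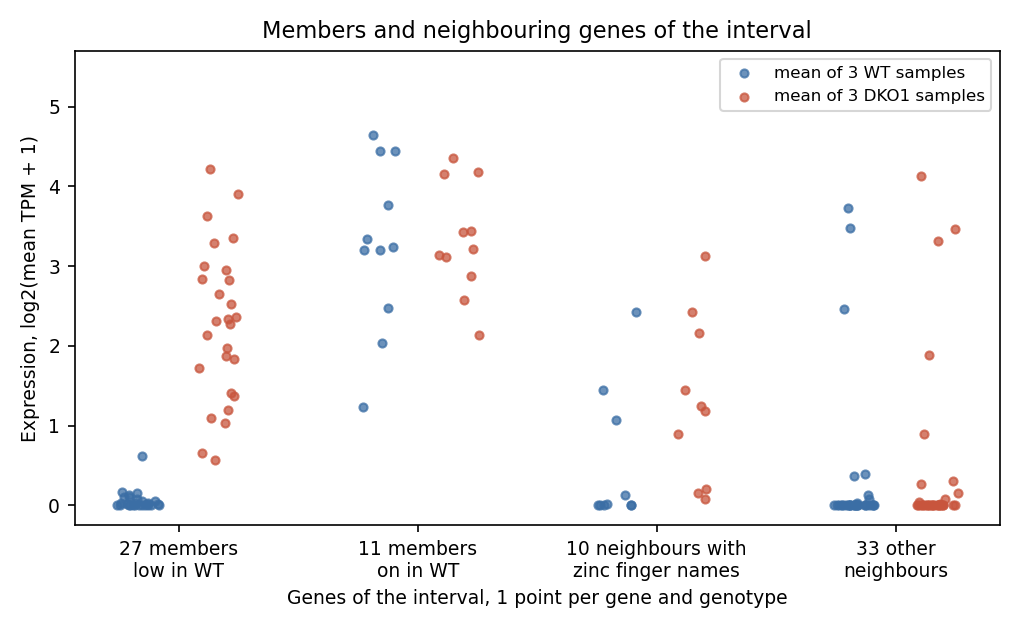
Mean TPM of 3 WT and 3 DKO1 samples, as log2(mean TPM + 1), for the genes of the interval in 4 sets. The 27 low members rise from the base line, 3 neighbours with zinc finger names do so as well, and most of the 33 other neighbours stay at 0.

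The promoter windows of the members were rich in CpG whether or not the gene was expressed in WT. The median number of CpG sites per window was 22 in the 22 low members with a window (14 to 32) and 25 in the 10 expressed ones (17 to 28), against 14 over 27305 genes and 19.8 over 178 zinc finger genes on the rest of chromosome 19. A gene with several windows counts by its mean. The ratio of observed to expected CpG was 0.858 and 0.815 in the 2 kinds. It was 0.74 over the zinc finger genes on the rest of chromosome 19 and 0.563 over all genes.

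Windows were searched on both strands for CCGGAAG (an ETS core), GGGCGG (an SP1 core), CCAAT (NF-Y), TGACGTCA (CREB and ATF) and the motifs of NRF1 and ZBTB33; no motif contains another. CCGGAAG was in 22 of 32 members (68.8%), beside 42.7% of zinc finger genes on the rest of chromosome 19 and 12.2% of all genes. It was held by 13 of 22 low and 9 of 10 expressed members. In all 22 the copy nearest to the start lay on the strand of the gene, where 51.6% of all genes with the motif and 25% of those zinc finger genes had it so. In 11 members it began exactly 4 bases after the start, among them ZNF808 and ZNF347 (low in WT) and ZNF616 and ZNF766 (expressed), where it reads within the last 50 bases of the windows printed above. ZNF761 did not hold these letters. GGGCGG was in 26 of 32 members, beside 71.9% of zinc finger genes on the rest of chromosome 19 and 48.3% of all genes. CCAAT was in 10 of 32 members, beside 60.7% of those zinc finger genes and 39.7% of all genes. The NRF1 motif was in 3 members (9.38%), with 15.2% of those zinc finger genes and 6.98% of all genes. TGACGTCA and the ZBTB33 motif were in 0 members. Those zinc finger genes held them in 5.06% and 1.12%, and all genes in 2.25% and 0.505%. The members descend from each other by duplication, so these windows are not independent, and a match is no evidence of binding.

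**Figure D5:**
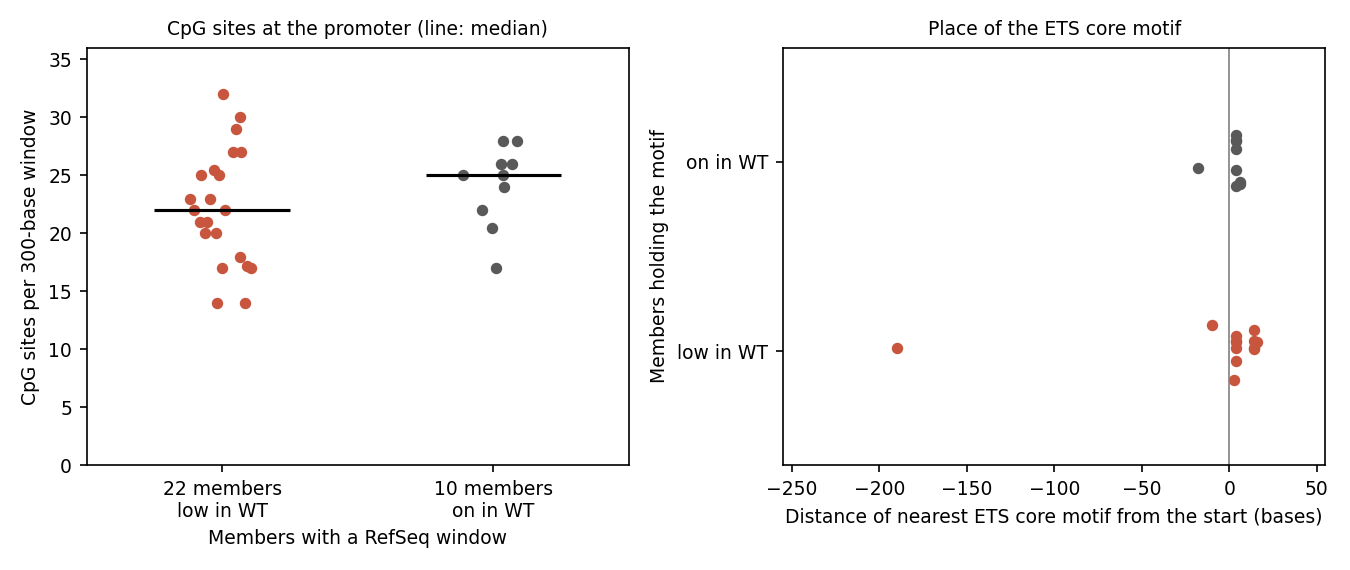
Left, CpG sites per 300-base promoter window for 22 members low in WT and 10 expressed in WT, 1 point per gene, with medians of 22 and 25. Right, distance from the start to the nearest ETS core motif in the 22 members that hold it, of which 11 lie at 4 bases.

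Because the members share sequence, the share of their 100-base stretches that also occur in transcripts of another gene was counted in GENCODE 29. It was under 1% in 22 of 38 members, with a median of 0.245%, and over 10% in 4. ZNF320 and ZNF468 shared most, 71.6% and 52%, chiefly with each other, through overlapping gene models on the same strand. Reads of ZNF320 (8.24 ± 1.57 TPM in WT) and ZNF468 (0.08 ± 0.06 TPM in WT, 4.13 ± 0.67 TPM in DKO1; limma adjusted p = 4.65e-05) can therefore be split in more than 1 way. ZNF836 (10.9%) and ZNF808 were the other 2 over 10%. A gene on the opposite strand overlapped 14 members, and whether counting used the strand is not given in the sources used here.

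Genes for the proteins through which KRAB zinc finger proteins act were expressed in both lines, and those that passed the test were lower in DKO1. Of 25 genes for the TRIM28 corepressor, HP1, NuRD, HUSH and H3K9 methylation, 0 rose and 6 fell. Their median log2 fold change was −0.27. Among all tested genes 18.8% rose and 9.6% fell. By unadjusted limma p below 0.05, 0 of the 25 were higher and 7 lower, and no share of all tested genes was counted at that threshold. TRIM28 was at 148, 80.9 and 134 TPM in WT and at 116, 45.8 and 148 TPM in DKO1; it missed the threshold (limma adjusted p = 0.606). SETDB1 did not pass either, at 33.5 ± 5.36 and 31.6 ± 2.76 TPM. The largest falls were in SMARCAD1, a chromatin remodeller, from 61.8 ± 4.05 to 33.7 ± 11.3 TPM (log2 fold change −0.91, limma adjusted p = 0.027), TASOR, a HUSH subunit, from 42.5 ± 4.67 to 23 ± 7.79 TPM (log2 fold change −0.9, limma adjusted p = 0.0261), and CBX3, the HP1 gamma gene, from 770 ± 61.2 to 427 ± 124 TPM (log2 fold change −0.89, limma adjusted p = 0.0181). The count of calls moved with single samples: without WT replicate 2 or 3, 0 of the list were called, without WT replicate 1 only 1, and without DKO1 replicate 1 only 3. With the replicate number as a block 8 were called lower. The share called lower among all tested genes moved as well. It was 3.85%, 4.04% and 4.44% without WT replicates 2, 3 and 1, 6.19% without DKO1 replicate 1 and 13.4% with the block.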

How the data were processed

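The deposited values are TPM per gene, rounded to 2 decimals, in 1 table of 6 samples, which the authors made with RSEM 1.2.21, STAR 2.5.3a, edgeR 3.12.1, FastQC and Trim Galore 0.4.0 on builds hg19 and GRCh37, per the submitters' processing notes, which give no role or order. The sources used here name no annotation release, strand setting or depth. Of 57897 rows, 77 had the names of spike-in RNAs and stayed out of the tests. Symbols came from a gene name table and GENCODE 29, and order and promoter windows from RefSeq on GRCh38.p14.

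Computed here: limma 3.58.1 (R 4.3.3) on log2(TPM + 1) of genes that reached 1 TPM in 3 or more samples, with genotype alone in the model, an intensity trend in the variance prior and Benjamini-Hochberg adjustment over 13604 genes. It was tested on simulated data with the same spread in both groups. Genes near 0 in WT spread far less in WT than in DKO1, so that test does not cover them. A ratio is given only for a WT mean of at least 0.5 TPM. Fold changes on this scale understate changes of low genes. Deviations from the group means correlated at 0.35, 0.572 and 0.267 between samples with the same replicate number. The numbers were thus taken to pair the samples, but the p-values given above ignore this pairing. A fit with that block is an alternative. In it 22.4% of tested genes were higher and 13.4% lower, beside 18.8% and 9.6% without the block.

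Named members were those with the largest rise, called falls, the highest means, the on and off cases and the extremes of those not called; the levels of the remaining members are given so that each is accounted for, and neighbours that were not called were named after their values were seen. Members, lists and tests were chosen with earlier results of these data known.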

Additional observations from a re-analysis of the deposited data

How the results depend on the processing

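Other settings tried were quantile normalization, median-ratio scaling, rescaling after leaving out mitochondrial and spike-in rows, a pseudocount of 0.1, a fit of all genes, a fit of genes averaging 5 TPM or more, a fit with a constant variance prior, a replicate block, and each sample left out in turn with the tested genes kept. The 24 called members that were low in WT kept direction and call in each of these where they were tested. Of 464 member values 451 kept their side of the threshold, though uncalled values near 0 could change sign (ZNF616, ZNF765 and ZNF761 without DKO1 replicate 1), and the 13 others belong to ZNF480, ZNF611, ZNF816, ZNF160 and ZNF761. Over all tested genes the median log2 fold change moved with the scaling, from 0.073 to −0.059 (median-ratio), −0.056 (quantile) and 0.189 (rescaling).

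The number of members called higher, 26, was 3 of 12 tested above a mean of 5 TPM, which keeps ZNF331, ZNF432 and ZNF841 of the low members, 24 under quantile normalization and 22 of 32 under median-ratio scaling. Among all genes of the same fits 12.7%, 14.9% and 14.9% were higher. The number lower was 1 under median-ratio scaling, beside 15.5% of all genes of that fit. With a sample left out it was 0 to 3, beside 3.85% to 15.3%. The median log2 fold change of tested cluster members, 1.866, was −0.1174 above a mean of 5 TPM, 1.976 under median-ratio scaling, 2.192 with rescaling, 1.765 with no filter, 4.635 with a pseudocount of 0.1 and 1.667 under quantile normalization. With the replicate block this median was 1.866 and 26 members were called higher, beside 22.4% of all tested genes. The block changed no member's call. With a sample left out, 0 to 7 corepressor and H3K9 genes were called lower, beside 3.85% to 15.3% of all tested genes. Above a mean of 5 TPM 0 neighbours were called higher, beside 12.7% of all genes of that fit. The depth of the samples is unknown, so no detection limit can be given.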
